A study of Mus musculus with 2 samples.

Results

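The large histone gene cluster of the mouse lies on chromosome 13, and 99 of 21887 protein-coding genes lie wholly within its interval, taken as 21.7 to 23.8 Mb in build mm10. Members were taken by position alone, though they were chosen with earlier results of these data known. Of the 99, 52 are histone genes: 6 H1, 12 H2A, 14 H2B, 9 H3 and 11 H4 genes. The other 47 are 36 vomeronasal receptor genes, 1 olfactory receptor gene, 2 zinc finger genes and 8 others. The interval also holds 79 of the 408 tRNA genes in the gene table. The gene that the table calls H4bc24 was counted as an H2B gene, because its older symbol there is Hist1h2br.

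The marks come from ChIP-seq of acetylated lysine 27 of histone H3 (H3K27ac), which sits at active promoters and enhancers. The cells were mouse acute myeloid leukaemia cells called MA9, the field's name for leukaemia driven by the MLL-AF9 fusion, taken from the bone marrow of primary animals. One group carried the floxed, undeleted Gata2 gene (Gata2 f/f, 1 library) and the other its deletion (Gata2 -/-, Gata2 KO, 1 library). Cells were transduced with Cre, or with MIT as the control, sorted for GFP and tdTomato and cultured for 7 to 9 days with murine IL-3, IL-6 and SCF before ChIP, and both groups share the kind of leukaemia, the medium and the sort. With 1 library per genotype no difference below has a replicate check or a test, and each compares these libraries rather than the genotypes.

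The deposited data are a list of broad peaks per library, with 34272 peaks in f/f and 37234 in KO on chromosomes 1 to 19, X and Y. Depth is unknown, since the lists hold no read counts. Peaks had a median width of 1207 bp (f/f) and 1166 bp (KO), and a median −log10 p of 12.2 and 9.41. The libraries also differed in sex-linked peaks: f/f had 1 peak over Xist and 0 on chromosome Y, whereas KO had 0 and 4. With 1 library per genotype these sex-linked peaks go with genotype, so the parts of sex and genotype in the differences below cannot be told apart. Gata2 itself had 4490 bases under peaks in f/f and 1429 in KO, although a peak list does not check a deletion. As a rough check of the label, gene-end peaks stood at 6 of 6 myeloid markers in f/f and at 5 in KO (all genes: 50.4% and 50.3%). Mpo lacked one in KO, although a KO peak lay elsewhere in the gene, and its f/f gene-end peak was weak (521 bp, −log10 p 4.90). At 4 markers of other cells (Pdgfra, Cdh5, Col1a1 and Krt5) there were 0 gene-end peaks in either list, although 3 of the 4 had a peak elsewhere in the gene.

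Replication-dependent histone genes encode the core histones H2A, H2B, H3 and H4, around which DNA is wrapped, and the linker histone H1, which binds between the wrapped units. They are short, mostly without introns, and are transcribed in S phase at nuclear sites called histone locus bodies, where the coactivator NPAT gathers. Their mRNAs end in a stem-loop bound by SLBP in place of a poly(A) tail. Histone genes of the interval had a median length of 491 bp, against 17169 bp over all protein-coding genes.

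A gene is called marked here if any peak comes within 1000 bp of one of its ends. By this measure 42 of the 52 histone genes (80.8%) were marked in f/f, where 50.4% of all protein-coding genes were. In KO 41 (78.9%) were marked, against 50.3% of all genes. These counts rest on peaks of low fold: with peaks of at least 3-fold enrichment only, 5 histone genes were marked in f/f (all genes: 45.4%) and 8 in KO (all genes: 42.1%), beside 6 and 5 of the 47 other genes of the interval. With all peaks, the same 41 were marked in both lists (all genes: 47.6%), and 10 were marked in neither (all genes: 47%). A stricter rule for a gene marked in 1 list alone asked that the other list have no peak within 5000 bp. By it 0 histone genes were marked in f/f alone, against 1.83% of all genes, and 0 in KO alone, against 1.6%.

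Every marked histone gene had a peak at or above its list's median −log10 p, which made 42 such genes in f/f (all genes: 44.7%) and 41 in KO (all genes: 45.1%). A peak overlapped the gene itself at 38 histone genes in each list, where 58.4% of all genes had one in f/f and 58.5% in KO. At 37 genes this held in both lists, and 31 of the 52 lay wholly under peaks in both. The matching shares over all genes were not counted. Histone genes are short, with a median of 491 bp against 17169 bp over all protein-coding genes. The part of gene length in these counts was not tested.

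Among the core histones, 9 of 12 H2A genes, 11 of 14 H2B genes, 8 of 9 H3 genes and 9 of 11 H4 genes were marked, with the same numbers in f/f and KO. Linker histone H1 was the type whose count differed, with 5 of 6 genes marked in f/f and 4 in KO. The gene behind that difference was H1f1. All 5 histone types were therefore marked at most of their genes, and no type stood empty.

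**Figure D1:**
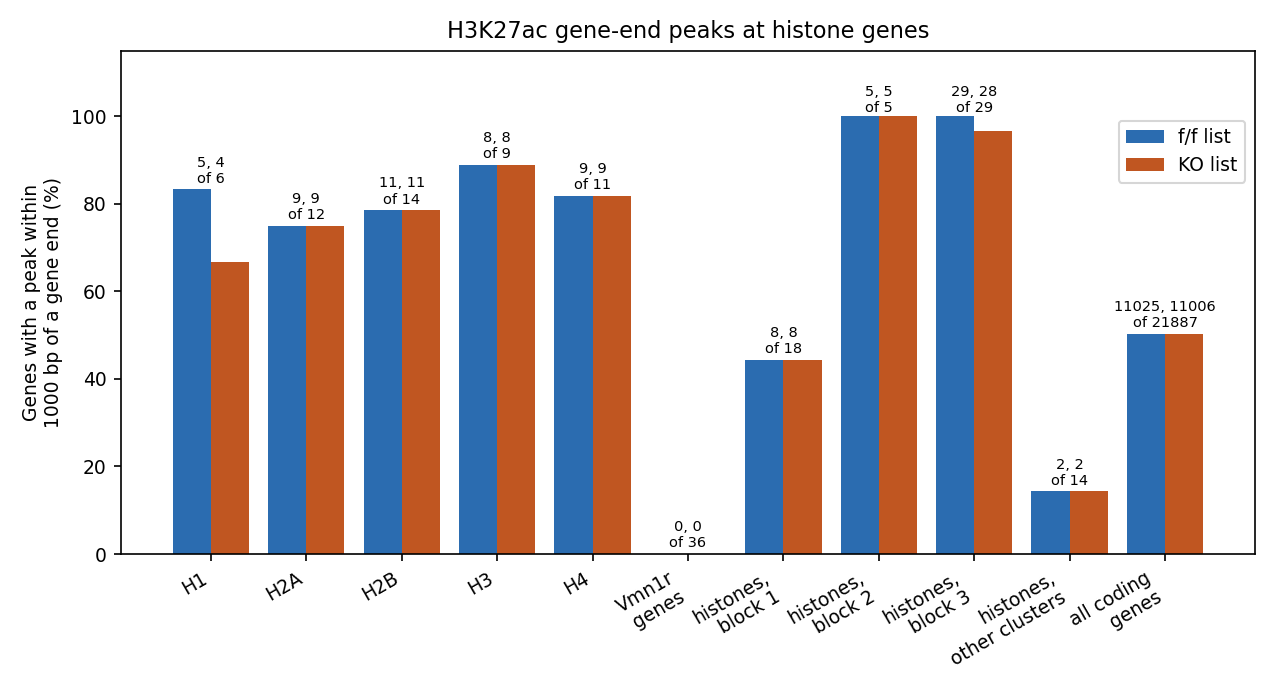
Percent of genes with a peak within 1000 bp of a gene end (y axis, 0 to 100%) in f/f and KO. Sets of genes are shown, among them each histone type and all protein-coding genes. Each histone type stands above the 50.4% and 50.3% of all genes.

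Marked and unmarked genes were parted by position. The 52 histone genes fall into 3 blocks, here runs of histone genes with gaps of at most 100 kb, extended by 5 kb. Block 1 (chr13:21710711-21842530) holds 18 histone genes, and 8 were marked in each list. In block 2 (chr13:22030122-22048658) all 5 genes were marked in both. In block 3 (chr13:23526044-23769412) 29 of 29 were marked in f/f and 28 of 29 in KO. Over all genes the shares were 50.4% in f/f and 50.3% in KO.

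All 10 unmarked genes lie in block 1, side by side: H1f5, H3c11, H2ac22, H2bc22, H2bc23, H2ac23, H4c17, H4c18, H2ac24 and H4bc24. Neither list had a peak from 21753219 to 21849822, a stretch of 96.6 kb that holds 12 histone genes. The unmarked gene nearest to an f/f peak was H4bc24, 12293 bp away, and the farthest was H2bc23, 39624 bp away. KO distances were 12330 bp and 39661 bp for the same genes. The other 2 genes of the stretch, H2ac15 and H2bc15, counted as marked only through the edge of the H4c12 peak. That edge lay 159 bp and 858 bp from them in f/f and 177 bp and 876 bp in KO. At the far side of the stretch, a peak with no coding gene within 1000 bp was 3402 bp wide (f/f) and 3430 bp wide (KO).

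**Figure D2:**
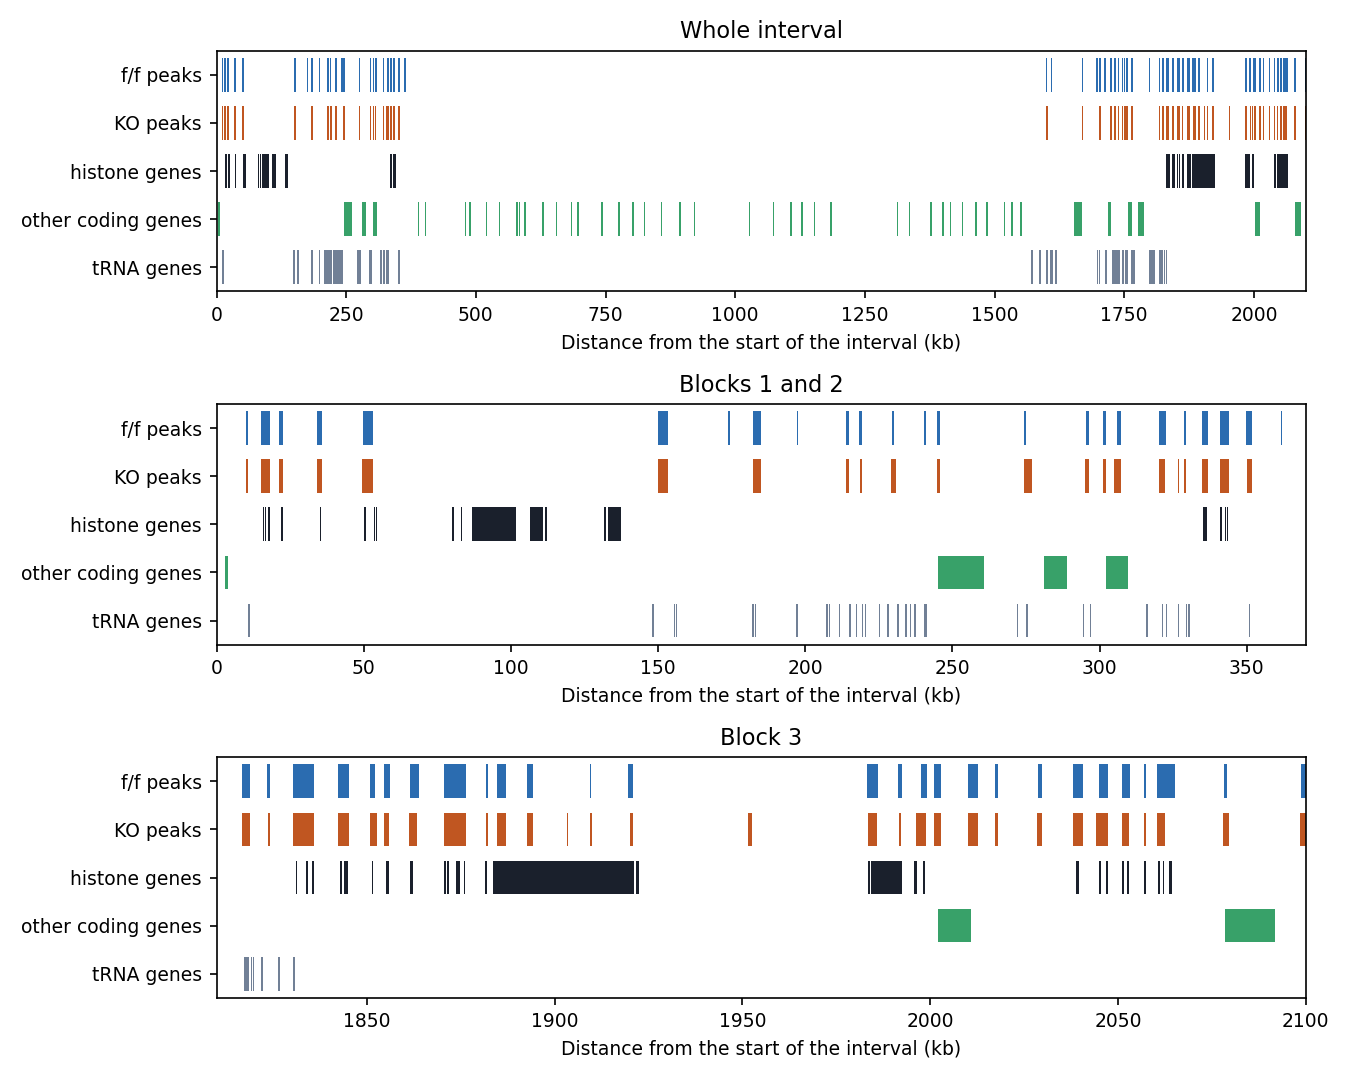
Map of the interval with the position along chromosome 13 given as distance from the interval's start, showing peaks of f/f and KO, histone genes, other coding genes and tRNA genes, with blocks 1 to 3 enlarged. The 10 unmarked histone genes sit together in block 1, and the longest stretch without peaks, of 1236.4 kb, holds the 36 vomeronasal receptor genes.

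The promoters show what marked and unmarked genes share. RefSeq promoter sequences (GRCm38.p6, the same build as mm10) run from 250 bp before to 50 bp after a start site and matched 49 of the 52 histone genes in 50 windows, with no entry for H3c7, H2bc4 and H3c1. H2bc12 (chr13:22035571-22035870, plus strand) was marked in both lists, while H2bc23 (chr13:21810150-21810449, minus strand) was marked in neither. The sequences are given to show how a marked and an unmarked H2B promoter read. Capitals mark the CCAAT box (CCAAT, or ATTGG on the other strand), the TATA box (TATAAA or TTTATA) and the octamer ATTTGCAT (or ATGCAAAT), an element known from H2B promoters and bound by the factor OCT1.
H2bc12: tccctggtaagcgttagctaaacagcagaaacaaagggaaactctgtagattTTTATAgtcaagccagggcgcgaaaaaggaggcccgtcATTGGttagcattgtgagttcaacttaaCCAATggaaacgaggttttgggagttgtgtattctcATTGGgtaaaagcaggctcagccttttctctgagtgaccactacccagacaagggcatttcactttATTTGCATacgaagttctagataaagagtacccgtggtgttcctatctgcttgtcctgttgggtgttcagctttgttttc
H2bc23: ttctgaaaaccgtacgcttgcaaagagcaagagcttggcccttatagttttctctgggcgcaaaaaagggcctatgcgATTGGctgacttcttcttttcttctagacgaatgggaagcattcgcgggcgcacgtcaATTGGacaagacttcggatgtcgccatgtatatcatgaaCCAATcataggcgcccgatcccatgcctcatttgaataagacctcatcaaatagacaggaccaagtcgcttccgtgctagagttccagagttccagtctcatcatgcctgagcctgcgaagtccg

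In this window H2bc12 has matches to all 3 elements, and H2bc23 has matches to the CCAAT box alone. The TATA match of H2bc12 is TTTATA, far upstream of its start site. Read on the other strand, the same letters count as TATAAA for its neighbour H2ac12. Among other H2B genes, the marked H2bc13 and H2bc11 also had CCAAT alone of the 3, and the unmarked H2bc22 had TTTATA. The H2bc23 window is letter for letter that of H4bc24, another unmarked gene: 300 of 300 bases were the same. H4 promoters were compared next to set the unmarked H4c17 (chr13:21811496-21811795, plus strand) beside the marked H4c9 (chr13:22041313-22041612, minus strand). Capitals mark TATAAA (or TTTATA), wherever it stands, and GGTCCG (or CGGACC). The latter is the core of an element of H4 promoters called site II, to which the factor HINFP binds.
H4c9: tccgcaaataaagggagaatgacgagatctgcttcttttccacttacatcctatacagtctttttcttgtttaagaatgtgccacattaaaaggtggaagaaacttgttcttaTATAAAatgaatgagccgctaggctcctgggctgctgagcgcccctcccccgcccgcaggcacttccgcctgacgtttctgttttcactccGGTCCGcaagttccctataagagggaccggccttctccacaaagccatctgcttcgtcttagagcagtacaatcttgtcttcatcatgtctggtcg
H4c17: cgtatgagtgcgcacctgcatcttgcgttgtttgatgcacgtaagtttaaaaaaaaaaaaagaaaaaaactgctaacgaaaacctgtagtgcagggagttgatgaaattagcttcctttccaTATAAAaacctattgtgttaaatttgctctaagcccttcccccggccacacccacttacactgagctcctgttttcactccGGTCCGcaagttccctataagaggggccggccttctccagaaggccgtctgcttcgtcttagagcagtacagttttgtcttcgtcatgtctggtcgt

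Both H4 windows hold the letters TATAAA and the GGTCCG core, though only H4c9 lay under peaks. In both, TATAAA lies farther from the start site than GGTCCG. The place of a match was not part of the search, and whether these letters serve as a TATA box was not tested. Of 11 H4 windows 10 held GGTCCG, against 12 of the 50 histone windows and 10.5% of all 21263 promoter windows. CCAAT stood in 42 histone windows (84.0%; all windows 38.2%), among them all 12 H2A, 14 H2B, 7 H3 and 6 H1 windows but only 3 of 11 H4 windows. TATAAA stood in 29 (58.0%; all windows 12.6%). ATTTGCAT stood in 9 (18%; all windows 1.66%), 5 of them at H2B and 4 at H2A genes. All motifs were searched on both strands. Matches of different motifs overlapped in 1 of the 50 windows, and 18 windows overlap that of another histone gene, so that a match can count for both genes of a pair. A match is a description of letters and not a binding site.

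Windows of the 10 unmarked genes held TATAAA in 6, CCAAT in 8, GGTCCG in 3 and ATTTGCAT in 0. The 40 windows of marked genes held them in 23, 34, 9 and 9. Sequence shared with other promoters differed more plainly. Cut into runs of 36 bases, 6 of the 10 unmarked windows shared at least 50% of their runs with another promoter: 100% for H2bc23 and H4bc24, 94.3% for H4c17 and H4c18, 89.4% for H2ac23 and 74.7% for H2ac24. The other 4 (H1f5, H3c11, H2ac22 and H2bc22) shared 0. Of the 40 marked windows, 4 shared any run and 0 shared as many as 50%, the highest being 21.9% for H4c11 and H4c12. Reads from sequence present in several copies cannot be placed with certainty, the sources used here do not say how they were treated, and their part in the 10 unmarked genes was not tested.

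Under the windows themselves, 34 of 50 were overlapped by a peak in f/f (all windows: 48.2%) and 33 in KO (all windows: 47.6%). At the start site alone the number was 32 in each list (all windows: 47.2% and 46.4%). Some genes with a peak at a gene end thus had none over the promoter window. They were H2ac15, H2bc15, H4c4, H1f4 and H1f6 in both lists. The upstream entry of H2bc6, whose gene model is 37455 bp long, had none either.

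H2A and H2B genes often stand head to head and share the DNA between their start sites. Among genes with a promoter entry, which gives the strand, the interval holds 9 such pairs, with gaps of 163 to 267 bp. In 5 pairs a single peak covered the whole gap in each list: H2bc13 with H2ac13, H2ac12 with H2bc12, H2ac11 with H2bc11, H2ac8 with H2bc8, and H2bc7 with H2ac7. The pair H2ac12 and H2bc12 lay under a peak 1962 bp wide in f/f and 2029 bp wide in KO. For H2bc13 and H2ac13 the peak was 3062 bp and 2945 bp wide. The other 4 pairs had no peak in the gap in either list, and all 4 lie in the blank stretch of block 1. In each of these 9 pairs the gap was either wholly covered or wholly bare.

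Peaks were counted at histone genes when they lay within 1000 bp of a gene's span. There were 25 in f/f with 58.7 kb in sum and 26 in KO with 58.0 kb. Their median width was 2001 bp in f/f (485 to 5857 bp) and 2016.5 bp in KO (467 to 5709 bp), above the list medians of 1207 and 1166 bp. In f/f 10 of them overlapped at least 2 histone genes, and in KO 11 did.

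The authors' fold enrichment and −log10 p rank a peak within its own list only. At histone genes median fold was 2.51 in f/f (1.82 to 5.10), at a median percentile of 12.7 in its list, and 2.51 in KO (1.81 to 6.03), at percentile 22.5. For −log10 p the medians were 42.9 in f/f (6.08 to 85.2) and 27.9 in KO (4.09 to 47.0), at percentiles 77.9 and 78.1. Histone gene peaks thus ranked high by p and low by fold: 23 of 25 in f/f reached the list's median −log10 p and 2 its median fold, and in KO 23 and 3 of 26 did. Width moves with both ranks. Among peaks of 2000 to 3999 bp, the median fold percentile was 14 for the 10 histone gene peaks of f/f and 35.4 for all, and 26.6 for the 13 of KO against 38.2. The median −log10 p percentile in that width class was 79.6 against 61.6 in f/f and 81.3 against 63.1 in KO. Below 1000 bp in KO the order was the reverse, at 22.9 for 5 histone gene peaks and 29.9 for all. The part of width in these ranks was not tested further.

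**Figure D3:**
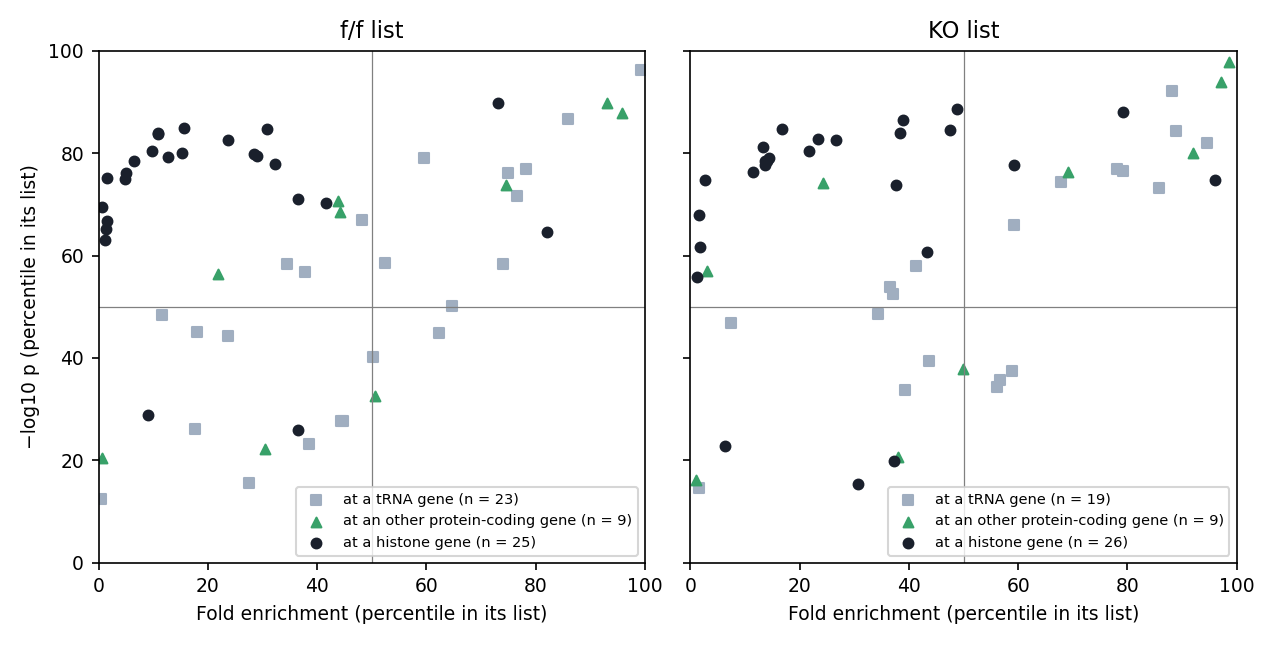
Percentile of fold enrichment (x axis) and of −log10 p (y axis) of peaks of the interval within their own list, in f/f and KO. Peaks are shown by the kind of gene they lie at: histone, other protein-coding or tRNA. Those at none of these (8 in f/f and 6 in KO) are not drawn. Histone gene peaks gather at low fold and high −log10 p, with medians at 12.7 and 77.9 in f/f.

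Of the 25 regions at histone genes with overlapping peaks, the one over the core genes H4c1 and H3c1 and the linker gene H1f1 differed most between the lists. The f/f peak was 4794 bp wide (chr13:23760315-23765108), and the KO peak was 2004 bp wide (chr13:23760485-23762488). On the log2 scale KO was at −1.26 of f/f, at percentile 2.67 of all regions with overlapping peaks. Regions wide in f/f leaned more to narrower KO peaks. The lower quartile of the log2 ratio was −0.47 for regions of at least 2000 bp in f/f and −0.21 for all. The rank of this region among those as wide was not counted. The peak covered 100% of H1f1 in f/f. In KO it ended 1180 bp before H1f1, whose own bases were not covered, while H4c1 and H3c1 stayed wholly covered. H1f1 was thus unmarked in KO, yet too near to the KO peak to count as marked in f/f alone. Over all genes, 2.73% had a peak within 1000 bp in f/f and none in KO, and 2.65% the reverse.

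Among the histone gene regions, the largest log2 ratio in favour of KO also lay at an H1 gene. At H1f6 (a testis-type H1) and H4c3 the peak was 1629 bp in f/f against 2661 bp in KO, a log2 ratio of 0.71. It covered 0% of H1f6 in f/f and 55.4% in KO, with H4c3 wholly covered in each. H1f2 and H1f3, linker genes of dividing cells, were covered whole in both lists. The H1f2 peak was 2607 bp (f/f) and 2612 bp (KO), and the H1f3 peak was 1652 bp and 1509 bp. H1f4 was marked from 765 bp away in f/f and 802 bp in KO, and H1f5 was unmarked in both. The H1 genes therefore spanned the whole range from no peak through alike to unlike peaks.

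H1 promoters share an element called the H1 box (AAACACA, or TGTGTTT), which stood in 5 of 6 H1 windows, 7 of 50 histone windows and 6.15% of all windows. H1f3 (chr13:23554782-23555081, plus strand), alike in the lists, is set beside H1f1 (chr13:23763418-23763717, plus strand), which was marked in f/f and not in KO. Capitals mark the H1 box, CCAAT and TATAAA with their reverse complements.
H1f3: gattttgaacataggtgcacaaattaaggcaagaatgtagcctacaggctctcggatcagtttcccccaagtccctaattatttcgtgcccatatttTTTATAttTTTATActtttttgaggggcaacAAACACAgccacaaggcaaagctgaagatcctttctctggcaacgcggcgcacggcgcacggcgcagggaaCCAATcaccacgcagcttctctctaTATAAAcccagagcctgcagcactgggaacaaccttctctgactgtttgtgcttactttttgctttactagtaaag
H1f1: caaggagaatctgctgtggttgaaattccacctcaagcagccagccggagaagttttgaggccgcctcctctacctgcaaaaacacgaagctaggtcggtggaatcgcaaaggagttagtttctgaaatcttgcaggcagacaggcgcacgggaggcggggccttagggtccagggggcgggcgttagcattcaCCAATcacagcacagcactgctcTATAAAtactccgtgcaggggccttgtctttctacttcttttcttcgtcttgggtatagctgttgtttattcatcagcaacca

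H1f3 holds the H1 box, and the H1f1 window does not. Both hold CCAAT and TATAAA. H1f6, whose peak also differed between the lists, does hold the H1 box.

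H4 genes encode one of the most conserved of all proteins, and 4 of the 9 marked ones (H4c11, H4c6, H4c4 and H4c2) had a peak to themselves. H4c11 had a peak of 1699 bp (f/f) and 1507 bp (KO), with the highest −log10 p of any histone gene in f/f (85.2) and 45.5 in KO. The H4c6 peak was 1401 bp in f/f against 2003 bp in KO (log2 ratio 0.52), the least alike of these. H4c2 had a narrow peak of 589 bp (f/f) and 635 bp (KO), and H4c4 one of 638 and 620 bp. The H4c12 peak, whose edge lies near H2ac15 and H2bc15, was 3297 bp in f/f against 3692 bp in KO (log2 ratio 0.16). H4 peaks thus ranged from among the narrowest of the cluster to above its median width.

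Marked H3 genes shared peaks with neighbours, H3c6 excepted. H3c3 and H2bc3 lay under 2426 bp in f/f against 3256 bp in KO (log2 ratio 0.42). H2ac4 and H3c2 lay under 2001 bp and 1997 bp. H3c6, alone, had 2354 bp and 2223 bp. H3c7 with H2bc9 had 2868 bp and 3075 bp. Of these 4 peaks, that of H3c3 and H2bc3 was the least alike between the lists. The H3c2 promoter (chr13:23752095-23752394, plus strand) is shown as one that stayed alike. Capitals mark CCAAT and TATAAA.
H3c2: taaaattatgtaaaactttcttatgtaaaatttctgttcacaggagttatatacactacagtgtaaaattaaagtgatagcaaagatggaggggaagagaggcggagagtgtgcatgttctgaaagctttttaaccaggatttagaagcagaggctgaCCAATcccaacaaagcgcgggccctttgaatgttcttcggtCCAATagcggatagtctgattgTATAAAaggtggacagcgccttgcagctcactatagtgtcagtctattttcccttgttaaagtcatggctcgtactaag

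The 5 widest histone gene peaks of f/f each lay at several histone genes. The widest in each list spanned H2ac8, H2bc8, H2bc7, H2ac7 and H3c4, with 5857 bp (f/f) and 5709 bp (KO). Next came the peak over H4c8, H2ac10 and H3c8, with 5542 bp (f/f) and 5529 bp (KO). The third in f/f was the H4c1, H3c1 and H1f1 peak described above, with 4794 bp against 2004 bp in KO. Then came the peak at H4c12, and the peak over H2bc13, H2ac13 and H3c10. Of these 5, the H4c1, H3c1 and H1f1 peak was the least alike in the lists.

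The H2B genes H2bc4 and H2bc6 have long gene models, with several peaks inside them. The inner H2bc4 peak was 877 bp in f/f against 648 bp in KO (log2 ratio −0.44). The peak near the end of H2bc6 that faces H1f4 was 1362 bp and 1016 bp (−0.42). A weak peak inside H2bc6 was 485 bp and 740 bp (0.61). The other 2 peaks of H2bc6 found in both lists were 2319 bp and 2391 bp (0.04), and 1800 bp and 1615 bp (−0.16). Peaks inside these genes were thus alike in some places and unlike in others. H2ac6 and H2bc4 lay under 2801 bp and 2498 bp (−0.17), and H2bc14 under 1621 bp and 1611 bp. One weak KO peak inside H2bc6 (467 bp, −log10 p 4.49) was the only histone gene peak of either list with no overlap in the other. The share of all peaks without such overlap was not counted.

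Over all 25 regions at histone genes with overlapping peaks, 15 were narrower in KO and 10 wider (all 28627 regions: 52.4% narrower). The median log2 ratio was −0.01, as it was over all regions (−0.01). In 14 of the 25 (56.0%) the lists differed by less than 1.1-fold (all regions: 40.3%), and in 3 (12.0%) by at least 1.5-fold (all regions: 20.8%). Of the 13 histone regions of at least 2000 bp in f/f, 8 were narrower in KO and 9 were within 1.1-fold. Over all 4423 regions as wide, 64.0% were narrower and 45.8% within 1.1-fold. In sum the histone regions held 0.979 of their f/f bases in KO.

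**Figure D4:**
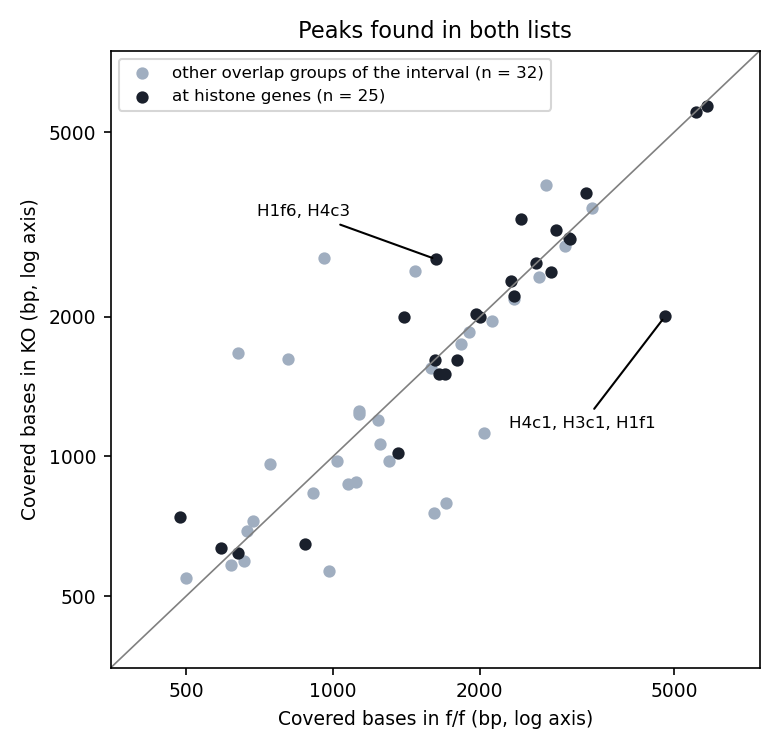
Bases under peaks in f/f (x axis) and KO (y axis) for each region of the interval with overlapping peaks, both in bp on log axes, with the line of equal width. Most of the 25 histone gene regions lie near the line, and the region of H4c1, H3c1 and H1f1 lies farthest below it, at 4794 and 2004 bp.

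Coverage of the blocks by bases was also close in the 2 lists, but slightly higher in KO, where the summed histone regions were slightly lower. All 3 blocks together had 16.5% of their bases under peaks in f/f, and 16.6% in KO, where chromosomes 1 to 19, X and Y up to the last gene or peak had 1.70% and 1.79%. Block 1 had 7.34% in f/f and 7.40% in KO, block 2 had 27% and 26.9%, and block 3 had 20.7% and 20.9%. The rest of the interval had 2.71% and 2.39%, so that KO held 0.882 of the f/f bases there and 1.01 times those of the blocks. The whole interval had 5.31% in f/f and 5.07% in KO.

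The peaks of marked histone genes reached far upstream of the start sites. At 39 start sites of histone genes marked in both lists, a peak lay 1000 bp upstream in 59.0% in f/f and 61.5% in KO. At 10500 start sites of other genes marked in both lists it did in 18.8% and 19.1%. At 500 bp downstream the shares were 89.7% and 92.3% for histone genes and 79.0% and 78.3% for other genes. At the start site they were 79.5% and 82.1% against 86.0% and 84.8%. Another histone gene began or ended within 1000 bp upstream of 19 of the 39 start sites, and the part of such neighbours in the upstream share was not tested.

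**Figure D5:**
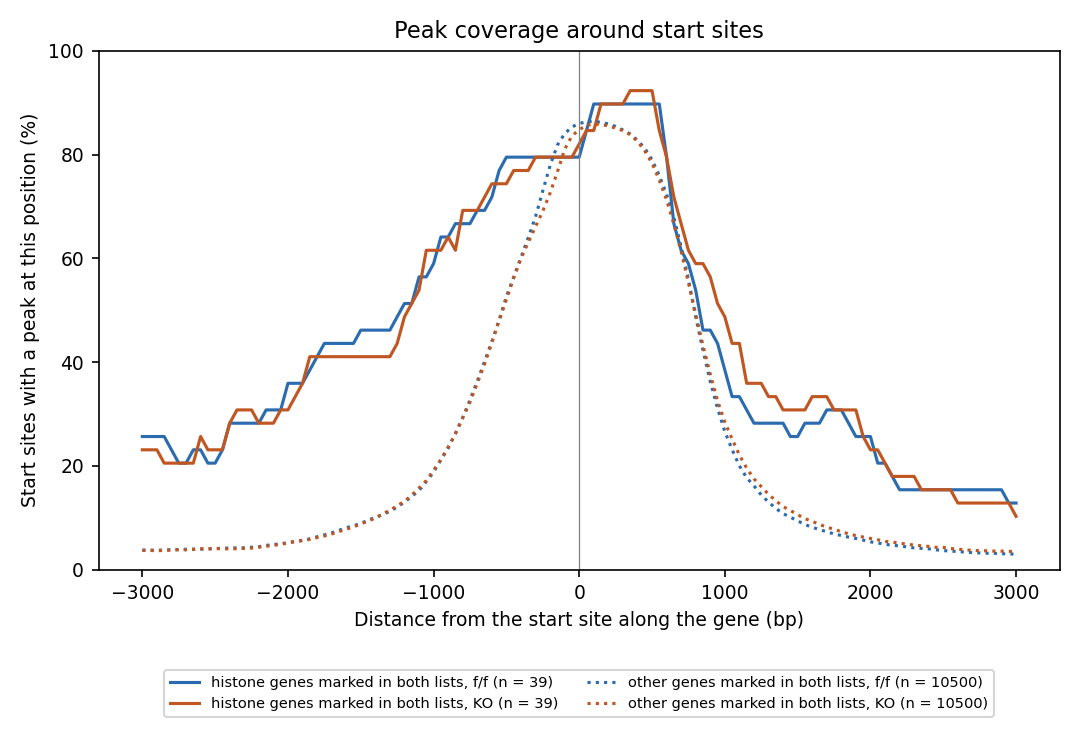
Percent of start sites under a peak (y axis) against distance from the start site along the gene (x axis, bp) for 39 histone start sites and 10500 others marked in both lists, in f/f and KO. Histone genes keep 59.0% at 1000 bp upstream in f/f, where other genes have 18.8%.

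Among the non-histone genes of the interval, 7 of 47 (14.9%) were marked, and the same 7 in both lists (all genes: 47.6%). In each list 5 of the 47 had a gene-end peak at or above the list's median −log10 p (all genes: 44.7% and 45.1%). The 7 marked genes included Zfp184 and Zfp322a, zinc finger genes, the serine protease gene Prss16 and the nuclear factor gene Abt1. The others were the butyrophilin gene Btn1a1, the iron regulator gene Hfe and the ubiquitin ligase gene Trim38. The Abt1 peak had a −log10 p of 85.6 in f/f and 85.3 in KO, and that of Zfp322a 75.6 and 63.1. Hfe, which lies inside block 3, had a widest peak of 2648 bp (f/f) and 2434 bp (KO). Trim38 had 810 bp and 1624 bp, from weak peaks (−log10 p 7.2 in f/f and 6.7 in KO). The peaks of Btn1a1 were weak too (5.5 and 4.6). All 36 vomeronasal receptor genes, which serve pheromone sensing, and the 1 olfactory receptor gene were without a gene-end peak. Over all genes, 47% had one in neither list. At the edges of the interval, Olfr1359 just inside had no gene-end peak and Trim38 just inside had one in both lists, and Olfr1360 and Slc17a2 just outside had none.

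The tRNA genes of the interval encode transfer RNAs, made by RNA polymerase III. Of 79, 48 (60.8%) had a peak within 1000 bp in f/f, where 46.6% of all tRNA genes did, and 39 (49.4%) in KO, against 40.4% of all. A peak was found in both for 37, in f/f and not KO for 11, and in KO and not f/f for 2 (all tRNA genes: 7.11% and 0.98%). Elsewhere 142 of 329 tRNA genes had one in f/f, and 126 did in KO, with 18 in f/f and not KO and 2 the reverse. Among the 23 f/f peaks at tRNA genes, 6 had no overlap in KO, and 5 of these 6 were below the list's median −log10 p. Of the 19 KO peaks at tRNA genes, 1 had no overlap in f/f. The share of all peaks without overlap was not counted. Over all chromosomes used, 34272 f/f and 37234 KO peaks formed 28627 regions with overlapping peaks. So 11 tRNA genes and 1 histone gene had a peak in f/f and none in KO. The difference between these kinds of gene was not tested.

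Outside the interval, marks at histone genes depended on the group. Over all genes 47.6% were marked in both lists. Of 14 other clustered histone genes, 2 were: H4f16 on chromosome 6, with 1770 bp (f/f) and 3099 bp (KO), and H2aw on chromosome 11, with 1954 bp and 1880 bp. All 10 genes of the cluster on chromosome 3 were without one, the nearest peak lying 22.4 to 54.1 kb away. H2bu2 and H3f4 on chromosome 11 had none within 1000 bp either, but peaks lay nearer to them. The nearest was 1.16 kb (f/f) and 1.25 kb (KO) from H3f4, and 4.38 kb from H2bu2 in each list. Of 11 variant histone genes, which are mostly expressed outside S phase too, 8 were marked in both, and H1f10, H2ax and H3f3b were not, although a peak lay inside H3f3b. Of 15 germ-line histone genes H1f8 alone was marked, by a weak peak (−log10 p 4.27 and 3.40).

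Of 27 genes that regulate histone expression, 26 were marked in both lists (all genes: 47.6%), among them Npat, Slbp, Hinfp, Casp8ap2 and Pou2f1. Nfyc, which encodes a subunit of the CCAAT-binding factor, was not, although a peak overlapped the gene. None was marked in 1 list alone. Over the histone groups outside the interval and these regulators together, 37 genes were marked in each list. With a gene-end window of 2000 bp the numbers were 39 in f/f and 40 in KO.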

How the data were processed

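Reads were aligned with BWA and handled with SAMtools, and peaks were called with MACS2 on mm10, per the submitters' processing notes, 1 list per library. For versions, options, the control and the handling of reads from repeated sequence, the sources used here say nothing. The deposited lists give, per peak, the authors' fold enrichment (a ratio over local background), −log10 of the p-value and of the q-value, and a score, which was not used. Both lists end at a −log10 q of 1.01.

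Positions and widths were taken from the lists with python 3.11.15 and pandas 2.3.3. Genes and promoter sequences came from RefSeq (GRCm38.p6). Gene ends were used because the gene table has no strand. Peaks of both lists were grouped where they overlapped by at least 1 bp. The functions were tested on simulated peaks. Shared sequence was counted in runs of 36 bases. No test was run, since each group has 1 library.

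Members and lists were chosen with earlier results of these data known. Any histone gene of the interval could be named, with every other gene of it that had a peak. Of the lists outside, members unmarked or marked in 1 list were named, with those compared with the cluster. Npat, Slbp, Hinfp, Casp8ap2 and Pou2f1 were named as examples. Of peaks, the widest and the most unlike were named, and others to describe a gene.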

Additional observations from a re-analysis of the deposited data

How the results depend on the processing

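The counts of marked histone genes stayed within 1.5 times of 42 and 41 under gene-end windows of 500 bp (39 and 39) and 2000 bp (42 and 42), body overlap (38 and 38), and promoter windows, an alternative chosen after seeing the data (34 and 33). With peaks of at least 3-fold enrichment they were 5 in f/f and 8 in KO, and with a 1000 bp rule for the other list, 1 gene (H1f1) was in f/f alone. The percent of the blocks under peaks was 15.5 in f/f and 15.4 in KO for peaks of −log10 q 5 or more, 2.73 and 3.45 with 3-fold enrichment, 15.5 and 15.2 at or above the median −log10 p, 16.3 and 16.5 with a flank of 20 kb, and 19.4 and 19.1 with gaps of at most 30 kb. For the interval it was 4.54 and 4.29, 1.86 and 1.55, and 4.09 and 3.89 under the first 3 of these. By fold in place of −log10 p, the median percentile was 12.7 in f/f and 22.5 in KO. The cause was not tested. No paired analysis was possible because each group has 1 library. Depth is unknown and limits every count of unmarked genes.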
